A study of Mus musculus with 9 samples.

Results

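Adrb1, Adrb3, Adra2a, Gnas, Prkaca, Prkar2b, Pde3b, Pde4b and Pde4d carry or restrain the noradrenaline signal of fat from the cell surface to protein kinase A. These 9 genes were picked from 28481 by gene name, as listed adrenergic receptor, G protein, kinase and phosphodiesterase genes, and all 9 passed the filter on low counts. RNA-seq was made from whole epididymal white adipose tissue, the visceral fat pad beside the epididymis. The UBKO group (4 libraries) carried a knockout of Ctnnb1, the β-catenin gene, driven by Ucp1-cre. The other 5 libraries were labelled Control. Both groups received CL316,243, an agonist of the beta3-adrenergic receptor, so every library comes from stimulated tissue and none shows the unstimulated state. A Cre under the Ucp1 promoter acts in Ucp1-expressing adipocytes, whereas the RNA is from every cell of the pad. The labels do not give the age, the dose and time of the agonist, or the alleles of the Control mice. Nor do they say that each library is a separate animal, so a p-value here measures how these libraries vary, and part of that variation may be technical.

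Catecholamines released in fat act on beta-adrenergic receptors, which couple through the stimulatory G protein alpha subunit to adenylyl cyclase. The cAMP that is made frees the catalytic subunits of protein kinase A from their regulatory subunits, and the kinase then phosphorylates lipases and lipid droplet proteins so that stored triglyceride is broken down. Alpha2 receptors couple to the inhibitory G protein and lower cAMP, and phosphodiesterases hydrolyse it. In rodent white fat the beta3 receptor is the main lipolytic receptor and phosphodiesterase 3B carries the antilipolytic action of insulin.

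Promoter windows of 7 of the 9 genes were found in RefSeq annotation of GRCm38.p6, the same build as the deposited coordinates (mm10). Each window ran from 250 bases before to 50 after an annotated start, and the 7 genes had 15 windows. They were searched on both strands for the cAMP response element TGACGTCA, for its 5-base core TGACG, which lies inside the full element, and for CTTTGAT, a site of the TCF factors that β-catenin binds. The 5-base core stood in 7 of the 15 windows, of 5 genes (Adrb1, Adra2a, Gnas, Prkaca and Pde4b), against 20.8% of all 32851 windows. A pair of the Gnas windows overlap and hold the same core, which is counted in both. The full element was in 0 of the 15 windows (1.79% of all windows) and CTTTGAT also in 0 (3.73%). Of the 8 other pathway genes that passed the test below, with 11 windows, Rgs2 was the one with the core. Gnas and Prkaca are shown because their levels followed each other most closely of any pair of the 9 genes, and Rgs2 because it passed the test. Capitals mark TGACG or its reverse complement CGTCA, all sequences read 5′ to 3′ on the gene's strand, and a match is a description of the letters and not a bound site.
Gnas, chr2:174329756-174330055, plus strand: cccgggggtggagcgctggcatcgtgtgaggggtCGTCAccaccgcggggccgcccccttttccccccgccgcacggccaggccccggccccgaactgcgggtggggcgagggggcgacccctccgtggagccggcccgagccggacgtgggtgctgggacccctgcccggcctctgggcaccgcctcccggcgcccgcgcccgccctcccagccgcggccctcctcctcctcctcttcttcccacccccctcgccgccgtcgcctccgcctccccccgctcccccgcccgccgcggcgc
Prkaca, chr8:83972728-83973027, plus strand: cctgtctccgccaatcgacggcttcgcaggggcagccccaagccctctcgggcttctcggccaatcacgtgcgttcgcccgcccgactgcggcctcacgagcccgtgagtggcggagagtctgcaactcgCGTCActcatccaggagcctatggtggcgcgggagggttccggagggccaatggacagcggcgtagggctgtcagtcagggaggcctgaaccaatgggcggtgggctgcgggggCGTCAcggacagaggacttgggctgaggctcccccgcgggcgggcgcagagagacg
Rgs2, chr1:144004100-144004399, minus strand: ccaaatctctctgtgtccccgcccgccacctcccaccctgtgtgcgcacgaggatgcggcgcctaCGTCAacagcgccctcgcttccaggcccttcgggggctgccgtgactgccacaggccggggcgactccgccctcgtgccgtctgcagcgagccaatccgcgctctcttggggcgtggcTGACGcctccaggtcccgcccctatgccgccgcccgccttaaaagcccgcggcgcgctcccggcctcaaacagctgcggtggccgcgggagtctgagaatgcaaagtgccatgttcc
The core began 216 bases before the start in this window of Gnas, which has 4 annotated windows. The cores lay 120 and 6 bases before the start in Prkaca, and 185 and 67 bases before it in Rgs2.

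Library totals were 15308480 to 17632709 counts. Levels are given as FPKM, read counts scaled by transcript length and library depth, rescaled here with the TMM factors of edgeR. That scaling matters in this series, because the TMM factors were 0.818 to 0.9326 in UBKO and 0.9974 to 1.326 in Control libraries. With plain total counts the median log2 difference of all 16123 tested genes moved to -0.39, against -0.005 with TMM. The targeted gene Ctnnb1 stood at 15.4, 17.9, 26.2 and 17.0 FPKM in the UBKO libraries 1 to 4, against 29.0, 30.8, 25.1, 24.5 and 23.5 FPKM in the Control libraries 1 to 5. The library labelled UBKO replicate 3 thus lay within the Control range, and the log2 difference of -0.48 (SE 0.17) did not pass the test (edgeR adjusted p = 0.0976). Transcripts of 10 epididymis epithelium markers were under 0.001% of counts in every UBKO library and in Control replicates 3 to 5, but 2.52% in Control replicate 1 and 2.22% in Control replicate 2. UBKO replicate 2 had the highest sum of 8 smooth muscle and pericyte markers, 338.5 FPKM, against 196.3 to 233.2 FPKM in the other UBKO and 122.5 to 201.3 FPKM in the Control libraries.

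Markers of other cells in the pad also differed between the groups. Of 10 macrophage markers 9 were lower in UBKO, with sums of 122 to 163 FPKM in UBKO and 479.9 to 1021 FPKM in Control libraries. The 10 adipocyte markers, among them Adipoq, Plin1 and Pparg, summed to 7501 to 10191 FPKM in UBKO and 3695 to 7712 FPKM in Control libraries. Pparg, Retn and Cfd passed the test as higher (3 of 10), and Adipoq and Plin1 did not pass. The fitted difference was positive for 9 of the 10. It was negative for Lep, at -0.75, which did not pass (edgeR adjusted p = 0.116). With total counts 2 of the 10 were called higher and 1 lower, where 236 of all 16123 tested genes were higher and 4482 lower. The median log2 difference of the 10 was 0.53, or 0.18 with total counts and 0.32 without Control replicates 1 and 2. Of 8 adipocyte progenitor markers 3 were lower and of 8 endothelial markers 2 were higher. The share over all tested genes was 3.88% for higher and 7.56% for lower. When UBKO replicate 3 was left out, the library with Ctnnb1 in the Control range, 0 progenitor and 0 endothelial markers and 1 adipocyte marker were called by edgeR, and 9 macrophage markers were lower, where 4.55% of all genes were called. In bulk tissue, fewer cells of a type and less RNA per cell cannot be told apart, and the part of cell makeup in the differences of the 9 genes was not tested.

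None of the 9 signalling genes passed the test between the genotypes (0 of 9, edgeR adjusted p under 0.05), where 11.4% of all tested genes did (3.88% higher and 7.56% lower in UBKO). At an unadjusted p under 0.05 there were 3 of 9 (Gnas, Prkar2b and Pde3b), against 28.5% of all genes. A DESeq2 Wald test and limma voom with library weights each called 2 of 9, Gnas and Pde3b, where they called 16.8% and 16.1% of all genes. The fitted difference was positive for 7 genes and negative for 2, with a median of 0.38 on the log2 scale. With total counts it was positive for 5 and negative for 4, with a median of 0.006. That scaling moves all genes alike: the median of all tested genes was -0.005 with TMM, with 7968 of 16123 positive, and -0.39 with total counts, with 2566 positive. The median of the 9 genes thus lay above that of all genes under both scalings. In Gnas and Pde3b every UBKO library lay above every Control library (2 of 9, both above), as was so of 6.41% of all tested genes, and a further 9.11% had every UBKO library below. Without Control replicates 1 and 2, 0 of 9 were called, against 6.4% of all genes, and the median difference of the 9 was 0.26.

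**Figure D1:**
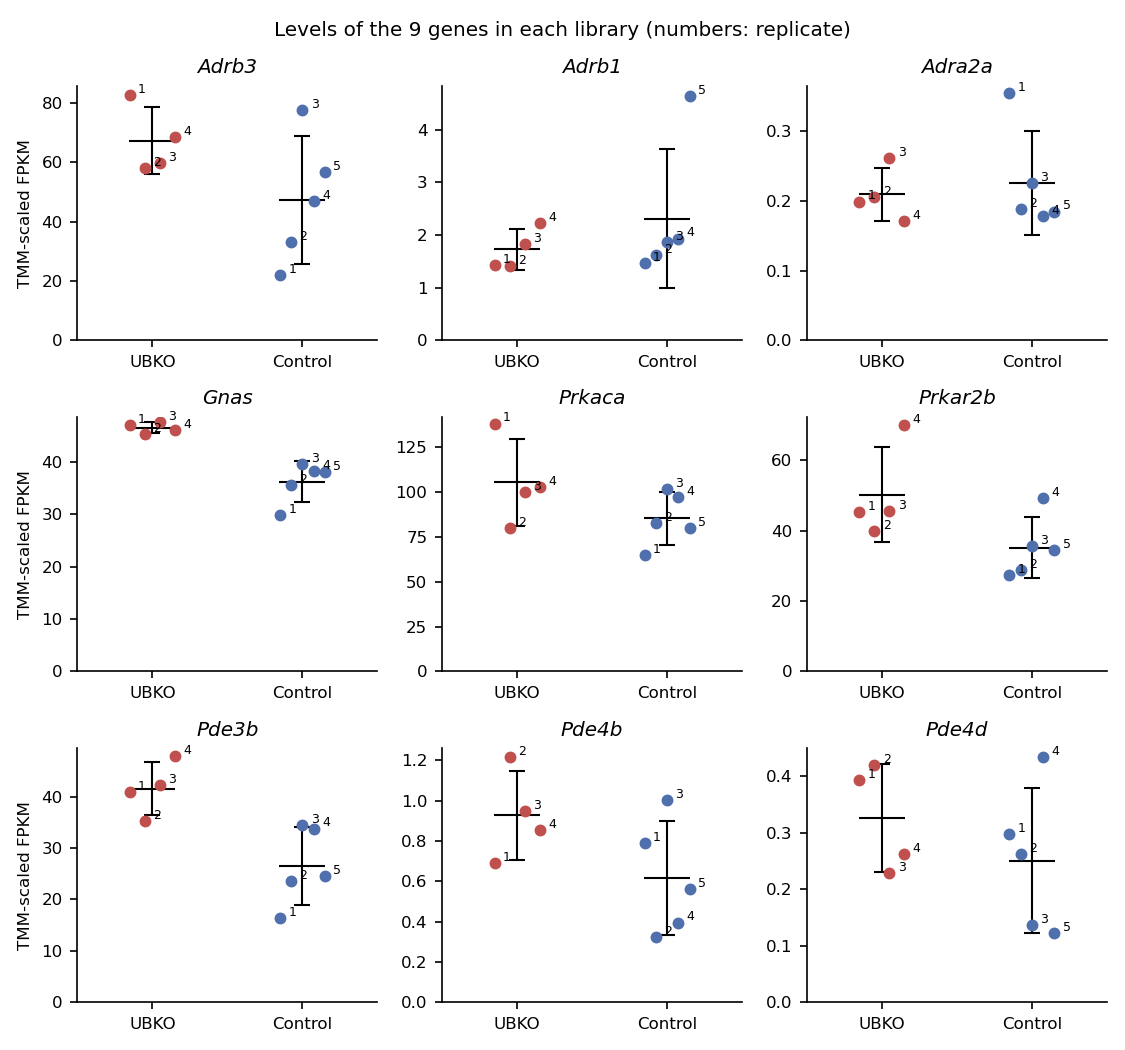
TMM-scaled FPKM of each of the 9 genes (y axes, from 0) in the 4 UBKO libraries (left) and the 5 Control libraries (right), with points numbered by replicate and bars for mean and SD. The groups do not overlap for Gnas (45.4 to 47.6 FPKM in UBKO, 29.8 to 39.5 FPKM in Control) and Pde3b, and Control replicate 5 stands apart for Adrb1.

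Adrb3, the beta3 receptor gene that the agonist addresses (ENSMUSG00000031489, chr8:27225776-27250616, minus strand), was the second most abundant of the 9 genes per transcript length. It stood at 82.7, 58.0, 59.8 and 68.6 FPKM in UBKO libraries 1 to 4, against 21.98, 33.1, 77.8, 46.9 and 56.7 FPKM in Control libraries 1 to 5. The groups overlapped, with Control replicate 3 above 3 of the UBKO libraries and Control replicates 1 and 2, the libraries with epididymal transcripts, lowest of all 9. The means were 67.3 ± 11.3 FPKM in UBKO and 47.3 ± 21.6 FPKM in Control (SD, n = 4 and 5), from 5943 to 9057 and 3324 to 9261 counts per library. The log2 difference was 0.51 (SE 0.32, 95% interval -0.19 to 1.21), which did not pass (edgeR adjusted p = 0.324). It was 0.14 when Control replicates 1 and 2 were left out (edgeR adjusted p = 0.711). The predicted gene Gm45470 overlaps Adrb3 and held 7.40% as many counts, and the reads of the pair could not be told apart here.

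Adrb1, the beta1 receptor gene (ENSMUSG00000035283, chr19:56722199-56733113, plus strand), was scarce. It had 1.44, 1.41, 1.83 and 2.23 FPKM in UBKO libraries, against 1.47, 1.62, 1.87, 1.93 and 4.64 FPKM in Control libraries, the last of these replicate 5. Apart from that library the groups covered nearly the same range. Its log2 difference was -0.42 (SE 0.35, 95% interval -1.20 to 0.37; edgeR adjusted p = 0.478), and without Control replicate 5 it was 0.02 (edgeR adjusted p = 0.955).

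Per length there were 30.7 to 57.5 times as many Adrb3 as Adrb1 transcripts in UBKO libraries and 12.2 to 41.6 times as many in Control libraries.

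Adra2a encodes the alpha2A receptor, which couples to the inhibitory G protein (ENSMUSG00000033717, chr19:54044151-54048982, plus strand), and was the lowest of the 9 genes. It stood at 0.199, 0.205, 0.261 and 0.171 FPKM in UBKO, against 0.354, 0.187, 0.225, 0.177 and 0.184 FPKM in Control libraries, from 21 to 31 and 24 to 64 counts. The groups overlapped and Control replicate 1 was highest. Between the groups the log2 difference was -0.11 (SE 0.28, 95% interval -0.73 to 0.50; edgeR adjusted p = 0.83), and it was 0.08 without Control replicates 1 and 2.

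Gnas, which encodes the stimulatory G protein alpha subunit (ENSMUSG00000027523, chr2:174284320-174346744, plus strand), had the least spread of the 9. It stood at 46.9, 45.4, 47.6 and 46.0 FPKM in UBKO libraries, against 29.8, 35.5, 39.5, 38.2 and 38.0 FPKM in Control libraries. Every UBKO library lay above every Control library. The means were 46.5 ± 1.015 FPKM in UBKO and 36.2 ± 3.88 FPKM in Control (SD, n = 4 and 5), a coefficient of variation of 2.18% in UBKO and 10.7% in Control. The log2 difference was 0.36 (SE 0.11, 95% interval 0.11 to 0.62), with an edgeR adjusted p of 0.0709, against 0.00552 with DESeq2 and 0.0439 with limma voom and library weights. With total counts, where the median of all genes was -0.39, it was -0.01 (edgeR adjusted p = 0.912). The authors' deposited table gives mean FPKM of 40.6 in UBKO and 40.2 in Control and a q-value of 0.5484 for it. The antisense gene Gnasas1 and the predicted gene Gm20721 overlap Gnas and held 0.0182% as many counts in all.

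**Figure D2:**
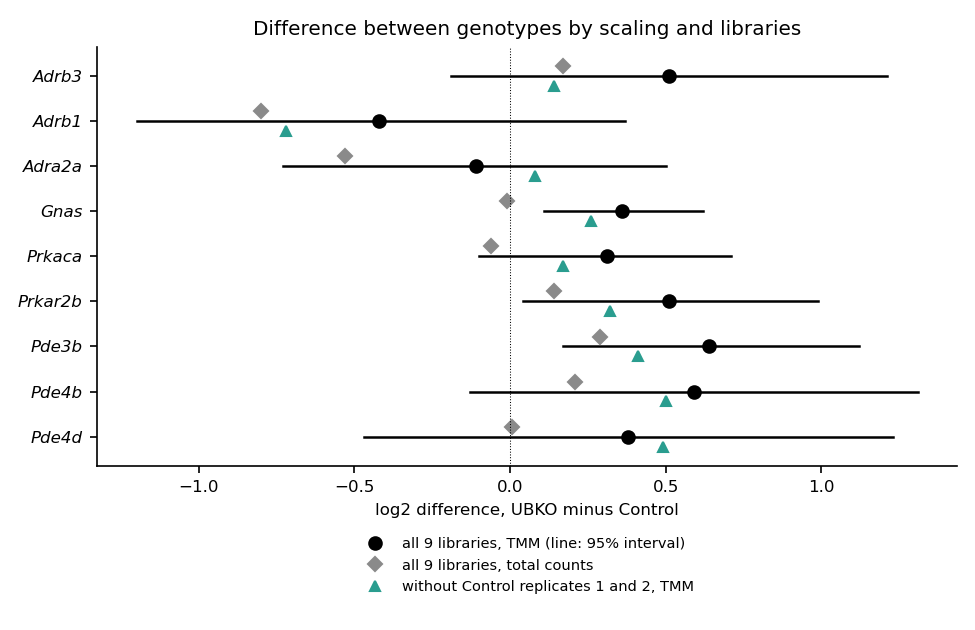
Log2 difference, UBKO minus Control (x axis), of each of the 9 genes (rows): circles with 95% intervals are the edgeR fit on all 9 libraries with TMM, diamonds use total counts and triangles leave out Control replicates 1 and 2. Diamonds lie left of circles for all 9 genes, as total counts move the median of all tested genes to -0.39, against -0.005 with TMM, and the diamonds of Gnas (-0.01) and Prkaca (-0.06) lie above that median.

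Prkaca encodes the main catalytic subunit of protein kinase A (ENSMUSG00000005469, chr8:83972993-83996443, plus strand) and was the most abundant of the 9 genes in every library. It stood at 138, 79.9, 100.1 and 102.9 FPKM in UBKO, against 64.9, 82.8, 101.4, 97.2 and 79.6 FPKM in Control libraries. The groups overlapped: UBKO replicate 1 was highest, and UBKO replicate 2 lay among the Control libraries. Its log2 difference was 0.31 (SE 0.18, 95% interval -0.10 to 0.71; edgeR adjusted p = 0.3), and -0.06 with total counts. It was 0.15 without UBKO replicate 1 and 0.17 without Control replicates 1 and 2. Prkaca made up 95.2 ± 1.59% of the FPKM of Prkaca and Prkacb, the other catalytic subunit gene, in UBKO and 94.3 ± 2.82% in Control libraries.

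Prkar2b encodes the RIIβ regulatory subunit, the abundant type II subunit of fat (ENSMUSG00000002997, chr12:31958476-32061296, minus strand). It stood at 45.2, 40.01, 45.5 and 70.2 FPKM in UBKO libraries, against 27.4, 28.8, 35.6, 49.3 and 34.6 FPKM in Control libraries. UBKO replicate 4 was highest, and Control replicate 4 lay above the other 3 UBKO libraries, so the groups overlapped. The log2 difference was 0.51 (SE 0.21, 95% interval 0.04 to 0.99), which did not pass (edgeR adjusted p = 0.147), and it was 0.32 without Control replicates 1 and 2 and 0.31 without UBKO replicate 4. Prkar1a, the most abundant of the other kinase A subunit genes, stood at 55.8 to 60.9 FPKM in UBKO and 49.1 to 54.7 FPKM in Control libraries, without overlap, with a log2 difference of 0.12 (SE 0.09; edgeR adjusted p = 0.382). Of the FPKM of the 4 regulatory subunit genes, Prkar2b made up 43.1 ± 5.13% in UBKO and 36.4 ± 5.17% in Control libraries (SD, n = 4 and 5), with overlap.

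Pde3b, the cAMP hydrolase that insulin activates in adipocytes (ENSMUSG00000030671, chr7:114415281-114539251, plus strand), had the largest fitted difference of the 9. It stood at 40.8, 35.2, 42.2 and 47.9 FPKM in UBKO libraries, against 16.4, 23.6, 34.5, 33.8 and 24.5 FPKM in Control libraries. Every UBKO library lay above every Control library, with UBKO replicate 2 closest to Control replicate 3. The means were 41.5 ± 5.19 FPKM in UBKO and 26.6 ± 7.60 FPKM in Control (SD, n = 4 and 5). The log2 difference was 0.64 (SE 0.21, 95% interval 0.17 to 1.12), with an edgeR adjusted p of 0.0777, against 0.0241 with DESeq2, 0.0308 with limma voom and library weights and 0.041 in the edgeR fit without Control replicate 3. It was 0.41 when Control replicates 1 and 2 were left out (edgeR adjusted p = 0.163), and with total counts 0.29 (edgeR adjusted p = 0.141). The authors' deposited table gives a log2 ratio of 0.31 and a q-value of 0.1631.

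Pde4b and Pde4d, rolipram-sensitive cAMP phosphodiesterases, were far scarcer. Pde4b (ENSMUSG00000028525, chr4:102087543-102607259, plus strand) stood at 0.691, 1.22, 0.948 and 0.853 FPKM in UBKO libraries, against 0.791, 0.323, 1.004, 0.396 and 0.563 FPKM in Control libraries. Pde4d (ENSMUSG00000021699, chr13:108449948-109953461, plus strand) stood at 0.393, 0.420, 0.229 and 0.262 FPKM in UBKO libraries, against 0.298, 0.262, 0.136, 0.434 and 0.123 FPKM in Control libraries. Both overlapped between the groups, and Control replicate 4 was below every UBKO library for Pde4b yet the highest library for Pde4d. Pde4b had a log2 difference of 0.59 (SE 0.32, 95% interval -0.13 to 1.31; edgeR adjusted p = 0.265), and Pde4d one of 0.38 (SE 0.38, 95% interval -0.47 to 1.23; edgeR adjusted p = 0.558), which was 0.23 to 0.69 when 1 library was left out. Pde3b made up 56.0 ± 2.46% of the FPKM of 16 cAMP phosphodiesterase genes in UBKO and 48.0 ± 6.24% in Control libraries (SD, n = 4 and 5), whereas Pde4b made up 1.27 ± 0.389% and 1.14 ± 0.531%.

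Ordered by FPKM over all 9 libraries, Prkaca (94.1) came first, then Adrb3 (56.2), Prkar2b (41.9), Gnas (40.8), Pde3b (33.2), Adrb1 (2.05), Pde4b (0.754), Pde4d (0.284) and Adra2a (0.218). Prkaca lay above Adrb3, Pde3b above Adrb1, and Adrb1 above Pde4b in 9 of 9 libraries. Adrb3 lay above Prkar2b in 6 of 9, Prkar2b above Gnas in 2 of 9 and Pde4d above Adra2a in 5 of 9, so these neighbours were not apart beyond their spread.

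**Figure D3:**
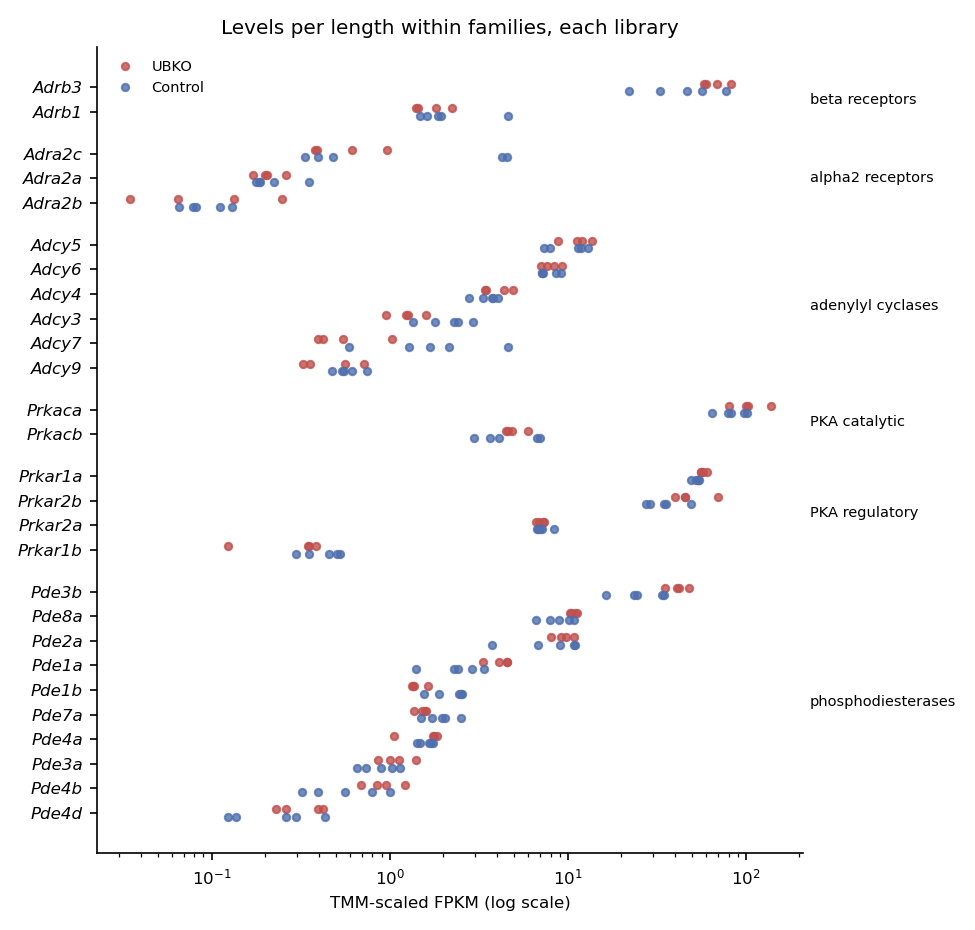
TMM-scaled FPKM (x axis, log scale), a level per transcript length, of the 9 genes and other genes of their families (rows) in each UBKO library (red, upper) and Control library (blue, lower). Adrb3, Prkaca and Pde3b stand above the other genes of their families in every library, and Adra2c is high in 2 Control libraries; adenylyl cyclase and phosphodiesterase genes of low level are not drawn.

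The 9 genes differed in how closely they followed the adipocyte markers over the libraries. The distance used is the root mean square difference of log2 CPM over the 9 libraries after centring each gene, and all libraries of both groups enter it, so it is a description. From the mean of the 10 adipocyte markers it was 0.116 for Pde3b, 0.229 for Prkaca, 0.243 for Prkar2b, 0.249 for Gnas and 0.286 for Adrb3. For the scarce genes it was 0.598 for Pde4b, 0.612 for Adra2a, 0.643 for Adrb1 and 0.731 for Pde4d. The median over the 16123 tested genes was 0.524. Of those genes 0.223% lay closer to the markers than Pde3b and 8.94% closer than Adrb3. The distances from the mean of the 8 endothelial markers were not the same: Gnas lay nearer to it, at 0.181, than to the adipocyte markers. So did Adra2a (0.443), Pde4b (0.481), Adrb1 (0.498) and Pde4d (0.674), where the median over the tested genes was 0.404. That median is below the 0.524 from the adipocyte mean, so the distances from the 2 means are not on 1 scale. By the share of genes closer to the endothelial and the adipocyte mean, Gnas had 2.47% and 5.67%, Adra2a 57% and 63.6%, and Adrb1 64.7% and 67.2%. The order turned for Pde4b (62.7% and 61.7%) and Pde4d (80% and 75.2%). Prkar2b (0.252), Prkaca (0.307), Pde3b (0.309) and Adrb3 (0.435) lay farther from the endothelial than from the adipocyte mean. From the mean of the 10 macrophage markers the distance was 1.09 for Adrb1, 1.15 for Adra2a and 1.34 to 1.58 for the other members. The median over the tested genes was 1.2. Of those genes 28.5% lay closer to the macrophage mean than Adrb1 and 38.2% closer than Adra2a, against 75.3% to 92% for the other members. The pair of members nearest each other was Prkaca and Gnas, at 0.20, then Pde3b and Prkar2b at 0.23.

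Set against Plin1, the perilipin that coats adipocyte lipid droplets, the 5 abundant genes overlapped between the groups. Pde3b had 13.4 ± 1.43% of the FPKM of Plin1 in UBKO and 12.4 ± 0.594% in Control libraries (SD, n = 4 and 5). Adrb3 had 21.8 ± 3.19% of it in UBKO and 21.5 ± 6.09% in Control libraries, and Prkar2b 16.1 ± 3.29% and 16.8 ± 2.53% (UBKO and Control). Prkaca had 33.7 ± 4.59% of it in UBKO and 40.8 ± 4.38% in Control libraries, and Gnas 15.2 ± 2.92% in UBKO and 17.6 ± 2.98% in Control libraries. The genes nearest Adrb3 by the same distance were Enpep (0.146), Acp5 (0.147) and Mogat1 (0.168). Those nearest Pde3b were Pard6g (0.0697), Lpin1 (0.076) and Pon3 (0.0929). Over the 11595 genes of at least 5 CPM the median was 0.621 from Adrb3 and 0.515 from Pde3b.

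**Figure D4:**
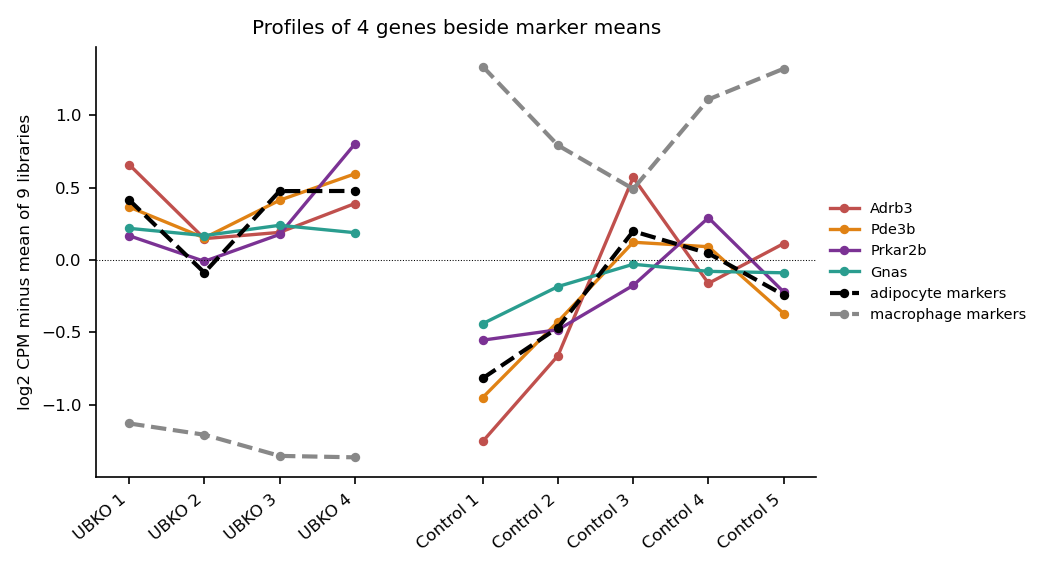
Log2 CPM minus the mean of the 9 libraries (y axis) for Adrb3, Pde3b, Prkar2b and Gnas and for the means of the adipocyte and macrophage markers, in each UBKO and then each Control library (x axis). Lines join 1 gene's values within a group and the order of replicates has no meaning; Pde3b lies close to the adipocyte mean (distance 0.116), and Control replicate 1 is lowest for the 4 genes.

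The other genes of the pathway came from 10 lists with 79 genes in the table, of which 78 were tested and Pde1c was too low. Of the 78, 6 were higher in UBKO and 2 lower, that is 10.3%, against 11.4% of all genes. At an unadjusted p under 0.05 there were 24 of 78, against 28.5% of all genes. DESeq2 and limma voom with library weights each called 8 higher and 7 lower, where they called 16.8% and 16.1% of all genes. The median log2 difference of the 78 was 0.03. With total counts 3 were higher and 22 lower with a median of -0.36, while all genes split into 236 higher and 4482 lower against 626 and 1219 with TMM. Without Control replicates 1 and 2, 1 was higher and 3 were lower (5.19%, against 6.4% of all genes). In 8 of the 78 the groups did not overlap, against 15.5% of all genes: Npy1r, Prkar1a and Akap5 were above in UBKO, and 5 were below, among them Grk5, Arrb2, Gng2 and Crtc3.

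Among G protein subunits and regulators (11 genes), Rgs2 rose and Gng2 fell. Each was 1 of the 11, against 3.88% of all genes higher and 7.56% lower. The Rgs2 protein accelerates GTP hydrolysis by G protein alpha subunits and can also inhibit adenylyl cyclases. It stood at 21.8, 11.7, 28.7 and 20.9 FPKM in UBKO libraries, against 7.499, 9.53, 13.8, 10.5 and 8.11 FPKM in Control libraries, and UBKO replicate 2 lay within the Control range. Its log2 difference was 1.07 (SE 0.25, 95% interval 0.51 to 1.64; edgeR adjusted p = 0.0264). Gng2, a G protein gamma subunit, stood at 2.28 to 3.42 FPKM in UBKO and 3.79 to 5.10 FPKM in Control libraries, without overlap, and its log2 difference was -0.61 (SE 0.14; edgeR adjusted p = 0.026). Gnai1, an inhibitory alpha subunit and the most abundant of the list, had 98.9 ± 19.96 FPKM in UBKO and 82.6 ± 19.5 FPKM in Control libraries, with a log2 difference of 0.26 (SE 0.20; edgeR adjusted p = 0.427).

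Of 6 receptors that couple to the inhibitory G protein and restrain lipolysis, Npy1r rose (1 of 6, against 3.88% of all genes higher). This receptor for neuropeptide Y stood at 0.614, 1.10, 0.849 and 0.767 FPKM in UBKO libraries, against 0.435, 0.280, 0.504, 0.316 and 0.444 FPKM in Control libraries. The groups did not overlap, and the log2 difference was 1.07 (SE 0.25; edgeR adjusted p = 0.0266). The lactate receptor Hcar1, the most abundant of the list, had 45.0 ± 13.1 FPKM in UBKO and 32.7 ± 13.6 FPKM in Control libraries, with a log2 difference of 0.46 (SE 0.32; edgeR adjusted p = 0.39). The fitted difference was positive for all 6 receptors, with a median of 0.51, and for 5 of 6 with total counts.

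Of 10 adenylyl cyclases, Adcy10 rose (1 of 10, against 3.88% of all genes higher). It encodes the soluble, bicarbonate-responsive cyclase and was low, at 0.521, 0.636, 0.281 and 0.405 FPKM in UBKO libraries, against 0.0820, 0.0955, 0.291, 0.186 and 0.152 FPKM in Control libraries. UBKO replicate 3 lay below Control replicate 3, and the log2 difference was 1.52 (SE 0.39; edgeR adjusted p = 0.0369). Adcy3 (-0.78, edgeR adjusted p = 0.0578) and Adcy7 (-1.79, edgeR adjusted p = 0.064) did not pass. DESeq2 and limma voom with library weights each called 3 of the 10, Adcy10 as higher and Adcy3 and Adcy7 as lower. Adcy5, a membrane cyclase and the most abundant of the list, had 11.4 ± 2.04 FPKM in UBKO and 10.3 ± 2.53 FPKM in Control libraries, with a log2 difference of 0.15 (SE 0.20; edgeR adjusted p = 0.666).

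Of 10 A kinase anchoring proteins, which tether the kinase to places in the cell, Akap5 and Akap7 rose. That is 2 of 10, against 3.88% of all genes higher. The fitted difference was positive for 6 of the 10 and negative for 4. Akap10 (-0.79, edgeR adjusted p = 0.0547) did not pass, and DESeq2 and limma voom with library weights called it lower. Akap5 was scarce, at 0.278, 0.292, 0.226 and 0.335 FPKM in UBKO libraries, against 0.0321, 0.0741, 0.122, 0.128 and 0.0828 FPKM in Control libraries, and the groups did not overlap. Its log2 difference was 1.69 (SE 0.36; edgeR adjusted p = 0.0172), from 51 to 78 counts in UBKO and 11 to 33 counts in Control libraries. Akap7 had 8.62 ± 1.82 FPKM in UBKO and 5.08 ± 1.29 FPKM in Control libraries (SD, n = 4 and 5), with overlap and a log2 difference of 0.76 (SE 0.21; edgeR adjusted p = 0.0448), and the predicted gene Gm40617 overlaps it. Akap1, the most abundant of the list and an anchor at mitochondria, had 11.6 ± 1.58 FPKM in UBKO and 11.7 ± 1.90 FPKM in Control libraries, with a log2 difference of -0.01 (SE 0.14; edgeR adjusted p = 0.973).

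Beyond the 3 members, 12 further cAMP phosphodiesterases were tested. Of these Pde1b, a calcium- and calmodulin-stimulated one, fell (1 of 12, against 7.56% of all genes lower). It stood at 1.35, 1.34, 1.36 and 1.64 FPKM in UBKO libraries, against 2.54, 1.55, 2.50, 1.88 and 2.45 FPKM in Control libraries, where replicate 2 lay below UBKO replicate 4. Its log2 difference was -0.62 (SE 0.17; edgeR adjusted p = 0.0448). Pde1a (0.74, edgeR adjusted p = 0.0591) did not pass. DESeq2 and limma voom with library weights each called 2 of the 12, Pde1b as lower and Pde1a as higher. Pde8a, the most abundant of these 12, had 10.8 ± 0.50 FPKM in UBKO and 8.91 ± 1.67 FPKM in Control libraries, with a log2 difference of 0.27 (SE 0.14; edgeR adjusted p = 0.233). The 2 EPAC genes encode exchange factors for the small GTPase Rap that bind cAMP. Of these Rapgef4 rose (1 of 2, against 3.88% of all genes higher). Rapgef4 had 0.666 ± 0.188 FPKM in UBKO and 0.352 ± 0.0774 FPKM in Control libraries and a log2 difference of 0.92 (SE 0.24, edgeR adjusted p = 0.0386). Rapgef3, the more abundant, had 2.58 ± 0.516 FPKM in UBKO and 1.75 ± 0.280 FPKM in Control libraries and did not pass, with a log2 difference of 0.55 (SE 0.17; edgeR adjusted p = 0.0589).

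**Figure D5:**
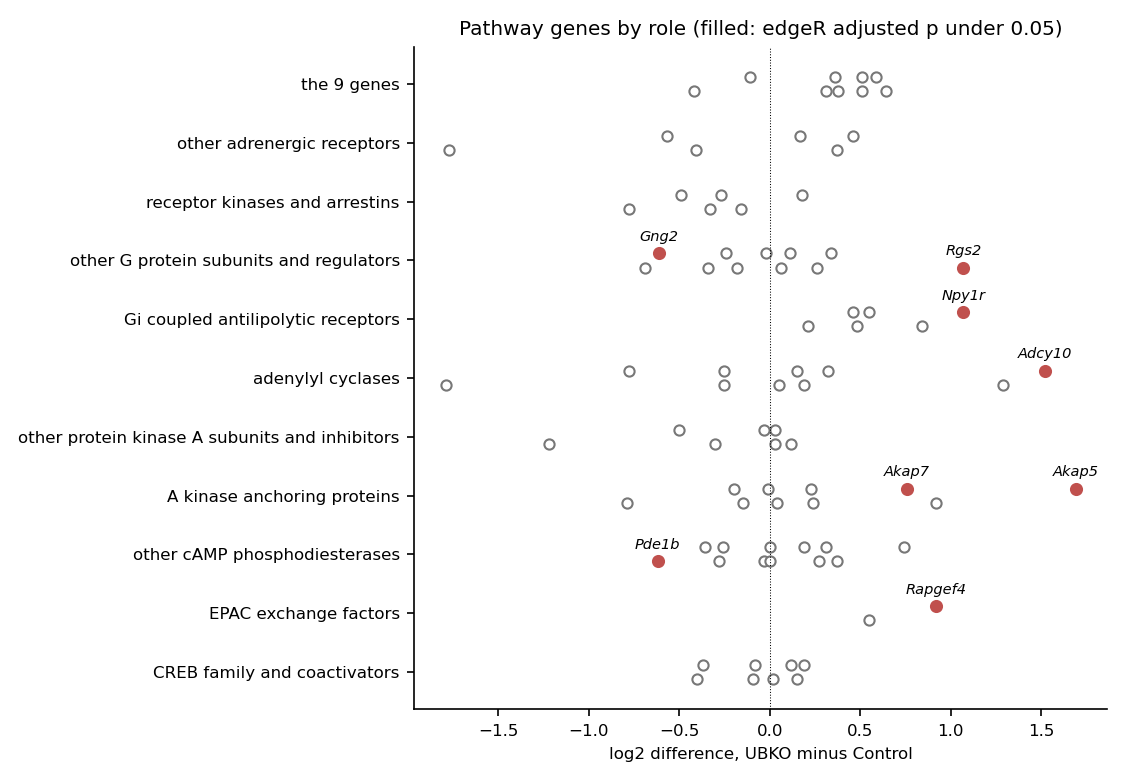
Log2 difference, UBKO minus Control (x axis), of the 9 genes (top row) and of each of the 78 other tested pathway genes by role (rows); filled points passed the edgeR test at an adjusted p under 0.05. The 6 filled points on the right and 2 on the left are named, and none of the 9 genes in the top row is filled.

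None of 6 other adrenergic receptors, 6 receptor kinases and arrestins, 7 other kinase A subunits and inhibitors and 8 CREB family genes passed the edgeR test (0 of 27, against 11.4% of all tested genes). An unadjusted p under 0.05 was found for 5 of the 27, against 28.5% of all genes. DESeq2 and limma voom with library weights called 2 each, against 16.8% and 16.1% of all genes. Adra1d, the most abundant of the other receptors and an alpha1 receptor, had 4.13 ± 0.833 FPKM in UBKO and 3.01 ± 1.36 FPKM in Control libraries (log2 difference 0.46, SE 0.30; edgeR adjusted p = 0.354). Grk2, the kinase that desensitises beta receptors, had 7.54 ± 2.50 FPKM in UBKO and 10.6 ± 2.53 FPKM in Control libraries (log2 difference -0.49, SE 0.24; edgeR adjusted p = 0.218). The difference was negative for 5 of 6 kinases and arrestins, with a median of -0.30. Atf1, a CREB family factor, had 5.46 ± 0.862 FPKM in UBKO and 5.76 ± 0.572 FPKM in Control libraries (log2 difference -0.08, SE 0.13; edgeR adjusted p = 0.744).

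The 8 calls on pathway genes lay near the threshold, and with 1 library fewer many fell short of it while the fitted difference stayed of similar size. The direction of each was the same in all alternatives run. Over the 9 fits that left out 1 library, the log2 difference was 1.49 to 1.88 for Akap5, 0.88 to 1.27 for Rgs2, 0.91 to 1.19 for Npy1r and 1.33 to 1.84 for Adcy10. It was 0.66 to 0.91 for Akap7, 0.73 to 1.07 for Rapgef4, -0.69 to -0.50 for Gng2 and -0.70 to -0.54 for Pde1b. Leaving out UBKO replicates 1 to 4 in turn gave 4, 6, 2 and 0 calls among the pathway genes, and leaving out Control replicates 1 to 5 in turn gave 4, 4, 14, 4 and 3. Calls over all genes moved as well, from 1845 with all 9 libraries. They were 946, 1710, 756 and 765 without UBKO replicates 1 to 4 in turn. Without Control replicates 1 to 5 in turn they were 1208, 1278, 2449, 1391 and 1136. Akap5 lost its call in 1 of these 9 fits, without UBKO replicate 4 (edgeR adjusted p = 0.0605). Rgs2 lost it without UBKO replicates 1, 3 or 4 or Control replicates 1 or 5 (edgeR adjusted p 0.051 to 0.0862). Gng2 lost it without UBKO replicates 1 or 4 or Control replicates 1, 4 or 5 (edgeR adjusted p 0.0507 to 0.0806), and Npy1r without UBKO replicates 2, 3 or 4 or Control replicates 2 or 4 (edgeR adjusted p 0.0513 to 0.0758). Akap7 lost it without UBKO replicates 1, 3 or 4 or Control replicates 1, 2 or 5 (edgeR adjusted p 0.06 to 0.137), and Rapgef4 without UBKO replicates 2, 3 or 4 or Control replicates 1, 2 or 4 (edgeR adjusted p 0.0707 to 0.0956). Adcy10 kept it in 1 fit, without Control replicate 3 (edgeR adjusted p 0.0544 to 0.0952 in the others), and Pde1b also in 1, without Control replicate 2 (edgeR adjusted p 0.0568 to 0.123 in the others).

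Without both Control libraries that held epididymal transcripts, the edgeR call ended for Rgs2 (log2 difference 0.93, adjusted p = 0.104), Npy1r (0.97, 0.102), Adcy10 (1.13, 0.109), Akap7 (0.54, 0.127) and Rapgef4 (0.78, 0.158). With total counts it ended for Npy1r (0.70, edgeR adjusted p = 0.0856), Akap7 (0.40, edgeR adjusted p = 0.0721) and Rapgef4 (0.54, edgeR adjusted p = 0.145). In the authors' deposited table, whose test is unnamed, the q-values of Rgs2 (0.005248), Akap5 (0.01354) and Adcy10 (0.04289) were under 0.05, and the lowest among the 9 signalling genes was that of Pde3b. That table's own calls mark Rgs2 as up, and Gng2 (q-value 0.193) and Pde1b (q-value 0.3313) as down. The other pathway genes that passed here, Akap5 and Adcy10 among them, and the 9 signalling genes are unmarked there.

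Of 10 transcripts known to respond to protein kinase A, Ppargc1a and Ucp1 rose (2 of 10, against 3.88% of all genes higher). The fitted difference was positive for 7 of the 10 and negative for 3, with a median of 0.24. Ppargc1a, the coactivator of mitochondrial genes, stood at 0.910, 1.02, 0.910 and 0.670 FPKM in UBKO libraries, against 0.365, 0.622, 0.584, 0.429 and 0.335 FPKM in Control libraries, without overlap (log2 difference 0.91, SE 0.23; edgeR adjusted p = 0.0349). Ucp1, the uncoupling protein of thermogenic adipocytes and the gene whose promoter drives the Cre, stood at 4.997, 2.42, 1.603 and 1.97 FPKM in UBKO libraries, against 1.34, 0.664, 0.832, 1.22 and 1.13 FPKM in Control libraries, without overlap (log2 difference 1.41, SE 0.36; edgeR adjusted p = 0.0365). The edgeR test called 0 of these 10 without Control replicates 1 and 2, against 6.4% of all genes. It called 1 without UBKO replicate 3, against 4.55% of all genes. With total counts 0 were higher and 1 lower, where 29.3% of all genes were called. Dusp1, a phosphatase of MAP kinases and the most abundant of the 10, had 6.66 ± 4.21 FPKM in UBKO and 6.41 ± 2.15 FPKM in Control libraries (log2 difference 0.05, SE 0.38; edgeR adjusted p = 0.946). Its reads could not be told from those of Ergic1, which overlaps it.

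Of 5 lipolytic substrates and partners of the kinase, 0 passed the edgeR test, against 11.4% of all genes, 2 had an unadjusted p under 0.05, against 28.5%, and neither DESeq2 nor limma voom called any. Their median log2 difference was 0.28, or -0.08 with total counts. Pnpla2, the adipose triglyceride lipase, had 445.5 ± 64.4 FPKM in UBKO and 393 ± 137 FPKM in Control libraries (SD, n = 4 and 5), with overlap and a log2 difference of 0.18 (SE 0.27; edgeR adjusted p = 0.709).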

How the data were processed

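Total RNA of whole epididymal fat was sequenced from 4 UBKO and 5 Control libraries, grouped and numbered by sample title. Paired-end TruSeq libraries were made from RNA above a set integrity number, per the labels' protocols. HISAT2, SAMtools 1.3.1, Cuffdiff and mm10 are named in the submitters' processing notes. The sources used here name no read counter or annotation and do not say whether strand was kept, so reads of overlapping genes cannot be separated. The deposited table holds counts and FPKM of 28481 genes for each library. Gene lengths recovered from the deposited counts and FPKM did not vary between libraries (coefficient of variation at most 7.39e-06 over 9394 genes), which shows that FPKM is relative to the sum of gene counts. Log2 ratios, p-values, q-values and up or down calls of the authors' own comparison are deposited beside them, with the test unnamed. Every row had an ID, and the number of per-sample columns left out was 0.

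For the main test, edgeR 4.0.16 (R 4.3.3) was run on the counts with filterByExpr, which left 16123 genes, TMM, glmQLFit and glmQLFTest on genotype, two-sided, with Benjamini-Hochberg adjustment over all tested genes and a threshold of 0.05. The SE is the log2 difference over the root of its F statistic. FPKM printed per library is deposited FPKM divided by the library's TMM effective size relative to its total, centred over the libraries. Alternatives were DESeq2 1.42.0 size factors and Wald test, total counts, no filter, limma 3.58.1 on log2(FPKM + 1) and log2(FPKM + 0.1) for genes of FPKM at least 1 in at least 4 libraries, limma voom with library weights, each library left out, the replicate number as a block, and fits without Control replicates 1 and 2, or those and UBKO replicate 2. No 2 replicates agreed within sampling noise (lowest chi-square per degree of freedom 17). The fits were tested on simulated counts.

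The 9 genes and all lists were chosen with earlier results of these data known. Named were all 9, every gene of the pathway lists that passed, each list's most abundant gene, Ctnnb1, and the 3 genes of at least 5 CPM nearest Adrb3 and Pde3b. Grk5, Arrb2 and Crtc3 were named after their values were seen, as genes without overlap between the groups, and so were Adra2c and Adcy8. Adcy3, Adcy7, Akap10 and Pde1a were also named after their values were seen, as genes that DESeq2 and limma voom called. Another gene of the lists is not reported here. Marker lists are given by counts and sums, with Retn, Cfd and Lep of the adipocyte list named after their values were seen.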

Additional observations from a re-analysis of the deposited data

Results flagged for a closer look

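In 3 of 34 gene groups examined (17 genes, 2 groups each), 1 library stood apart from the rest of its group by more than Dixon's 95% limit, which chance passes in about 1 of 20 groups. Adrb1 in Control replicate 5 was 4.643 FPKM, against 1.474 to 1.933 FPKM in the other Control libraries. Adra2a in Control replicate 1 was 0.354 FPKM, against 0.1774 to 0.2248 FPKM in the other Control libraries. Pde1b in UBKO replicate 4 was 1.638 FPKM, against 1.339 to 1.361 FPKM in the other UBKO libraries. The cause was not tested for any of these.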

How the results depend on the processing

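The edgeR fit called 1845 genes, 0 of the 9 signalling genes and 8 pathway genes. Counts of all genes moved to 4718 with total counts (5% of calls higher in UBKO, against 33.9% with TMM), 1110 with no filter, 2990 with DESeq2, 4025 and 4138 with limma on log2(FPKM + 1) and log2(FPKM + 0.1), and 1022 without Control replicates 1 and 2. Leaving out 1 library at a time gave 756 to 2449. Of the 9 genes, DESeq2 and limma voom called 2, and leaving out 1 library gave 0 to 1. Of the pathway genes, total counts called 25 of 78, no filter 2 of 79, DESeq2 15 of 79, each limma fit on FPKM 22 of 55 and limma voom 15 of 78. DESeq2 and limma voom each had 8 higher and 7 lower, against 6 higher and 2 lower in the main edgeR fit. Each limma fit on FPKM had 1 higher and 21 lower. The fit without Control replicates 1 and 2 called 4 of 77, and leaving out 1 library gave 0 to 14. Of all genes, 29.3% were called with total counts, 16.8% with DESeq2, 16.1% with limma voom and 6.4% without Control replicates 1 and 2. The limma fits on FPKM tested 12031 genes and the fit with no filter 28481.

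Gnas reached the threshold with DESeq2 (0.36) and limma voom (0.34), and Pde3b with DESeq2 (0.65), limma voom (0.66) and in 1 of the fits that left out a library (0.53 to 0.76), and stood at 0.51 without Control replicates 1 and 2 and UBKO replicate 2. The sign turned for Gnas with total counts (-0.01), and for Prkaca with total counts (-0.06) and both limma fits on FPKM (-0.06). It turned for Adrb1 between fits that left out 1 library (-0.56 to 0.02), and was -0.61 without Control replicates 1 and 2 and UBKO replicate 2. It turned for Adra2a with limma voom (0.02), without Control replicates 1 and 2 (0.08), without those and UBKO replicate 2 (0.12), and between fits that left out 1 library (-0.23 to 0.13). Total counts and the limma fits on FPKM, which is relative to summed counts, shift all genes by construction (medians -0.39, -0.26 and -0.33), and the cause of the other changes was not tested. Adrb3, Prkar2b, Pde4b and Pde4d kept a positive sign and did not pass in any alternative that tested them. The filter of the limma fits on FPKM left out Adra2a, Pde4b and Pde4d. Adrb1, Adra2a, Pde4b and Pde4d had 21 to 317 counts per library.

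With the replicate number as a block 747 genes were called, 0 of the 9 and 0 of the pathway genes. Same-numbered libraries did not all deviate together (correlations -0.179, 0.54, 0.0946 and 0.164 for numbers 1 to 4), so the numbers were not taken as pairs. Control replicate 5 was the best match of UBKO replicates 1, 3 and 4.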

Other observations

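Adra2c, the alpha2C receptor gene, was high in the Control libraries that held epididymal transcripts. It stood at 0.617, 0.966, 0.391 and 0.379 FPKM in UBKO replicates 1 to 4, against 4.29, 4.57, 0.481, 0.398 and 0.334 FPKM in Control replicates 1 to 5. With it in the sum, Adra2a made up 14.4% to 33.2% of the FPKM of the 3 alpha2 receptor genes in the UBKO libraries. It made up 7.49% and 3.84% of it in Control replicates 1 and 2, and 27.5%, 27.1% and 31.6% in Control replicates 3 to 5. Adcy8, a calcium-stimulated adenylyl cyclase gene, was listed at 0 in UBKO replicates 3 and 4 and stood at 0.0183 and 2.58 FPKM in UBKO replicates 1 and 2. In Control replicates 1 to 5 it stood at 0.986, 2.54, 0.157, 0.159 and 0.0164 FPKM. Whether cells of the epididymis gave these transcripts was not tested.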
